A study of Mus musculus with 6 samples.

Results

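AP-1 is a family of basic leucine zipper (bZIP) transcription factors, and its transcripts were followed here across 3 groups of mouse embryonic stem cells. The members were taken by gene symbol, as every feature of the deposited table whose single symbol in the platform annotation is Jun, Junb, Jund, Fos, Fosb, Fosl1, Fosl2, Atf3, Batf3 or Jdp2. Each of these 10 genes had 1 feature, so 10 of the 34760 features of the table were members. All 10 lay above the filter on low values, a mean log2 value of 6.70, and were tested.

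AP-1 factors act as dimers. JUN proteins pair with each other, with FOS proteins or with relatives such as ATF3, BATF3 and JDP2, and the FOS proteins need a JUN partner to bind DNA. Several of the genes are immediate early genes, switched on by growth factors without new protein synthesis: Fos transcription is driven by SRF and ETS-type cofactors that ERK phosphorylates, Fosl1 is a slower ERK-dependent gene, Jun is driven through JNK and by its own product, and Junb is a known early target of cytokines that signal through gp130 and STAT3.

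Every group came from the same ESC line, of strain C57Bl/6, with stable expression of a chimeric receptor, GRgp-Y118F, which the untreated controls therefore carried too. Such a receptor lets GCSF (granulocyte colony-stimulating factor) act through the intracellular part of gp130, the LIF receptor subunit that activates STAT3, and Y118F lacks the docking tyrosine for SHP2, the link to ERK. The 3 groups were GCSF for 1 h, LIF together with 1 uM PD0325901, a MEK inhibitor, for 1 h (labelled LIF/PD), and untreated control, with 2 arrays each. Treated cells had been without serum for 6 h, and the sources used here do not say whether the controls had been, nor whether the line was 1 clone or the arrays of a group were separate cultures. If the controls had kept serum, treatment and serum withdrawal cannot be told apart in the comparisons with control. LIF and PD0325901 were given only together, so their effects cannot be told apart either. Pluripotency markers lay between the 77.7 and 99.9 percentiles of mean signal, and their mean log2 value ranged from 11.76 to 11.79 over the treated arrays, against 11.76 and 11.73 in the control arrays. The mean of 8 feeder fibroblast markers lay between 9.45 and 9.50 on all 6 arrays.

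Genes that report ERK activity went against the labels of the treated groups. The ERK phosphatase gene Dusp6 measured 8.93 and 8.94 log2 on the arrays labelled GCSF, with 10.51 and 10.54 on those labelled LIF/PD, against 10.47 and 10.52 in control. Spry4, an inhibitor of the same pathway, was lower in the arrays labelled GCSF by the same pattern (8.12 and 8.22, with 10.12 and 9.98 under LIF/PD, against 9.97 and 10.04 in control). The MEK inhibitor is named on the label of the group whose Dusp6 and Spry4 means differed from control by 0.03 and 0.05 log2. Socs3, the feedback gene that STAT3 induces, was high under both labels on its brighter feature, at 10.79 and 10.98 (GCSF) and 10.42 and 10.32 (LIF/PD), against 7.77 and 7.73 in control. On its dimmer feature the difference from control with limma was 0.51 under GCSF (adjusted p = 0.0219). Under LIF/PD that feature differed by 0.39 and did not pass (adjusted p = 0.329). The endogenous GCSF receptor gene, Csf3r, had a signal too low to be tested. Whether the labels GCSF and LIF/PD were exchanged was not tested. If they were, the results below under GCSF would belong to LIF/PD and the reverse. This covers Jun, Atf3, Fosl2, Fosl1 and Junb and the other genes named. The sign of each difference between the treatments would also turn. The groups are kept as labelled, and each direction below refers to arrays by their label, written as under GCSF or under LIF/PD. Both comparisons with control use the same 2 control arrays, so their values are not independent of each other.

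In the arrays labelled GCSF, Jun, Atf3, Junb and Fosl2 rose by 1.46-fold to 1.66-fold and Fosl1 fell to 0.772 of its control level. In the arrays labelled LIF/PD only Junb passed the test, with a rise of 0.58 log2, beside 0.59 under GCSF. Fos, Fosb, Jund, Batf3 and Jdp2 passed in no comparison with limma. Thus 5 of 10 members were called under GCSF, 4 higher and 1 lower, where 1.17% of the 16912 tested features were called, 0.804% higher and 0.367% lower. Under LIF/PD 1 member was called, higher, and 0 lower, against 0.065% of all tested features, 0.0591% higher and 0.00591% lower. With limma the calls of Fosl1 under GCSF (adjusted p = 0.0410) and of Junb under LIF/PD (adjusted p = 0.0400) stood near the threshold. At an unadjusted p under 0.05 there were 6 members under GCSF, against 12.1% of all features, and 3 under LIF/PD, against 6.59%. The median size of the log2 difference, sign ignored, was 0.33 for the members against 0.06 for all features under GCSF, and 0.07 against 0.05 under LIF/PD. In these bulk RNA samples a change in the number of cells with a transcript and a change in its amount per cell cannot be told apart.

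Single markers of other cell types passed under GCSF. Higher were 1 of 7 tested feeder fibroblast markers (Col3a1, 0.29 ± 0.05), 1 of 4 trophoblast markers (Tfap2c, 0.74 ± 0.06) and 1 of 4 neuroectoderm markers (Pax6, 0.54 ± 0.07), as well as 2 of 10 pluripotency markers (Tdgf1, 0.30 ± 0.03, and Fgf4, 0.29 ± 0.03). With limma 0 of 4 primitive endoderm and 0 of 4 mesoderm markers passed, with 0 and 1 at an unadjusted p under 0.05. Under GCSF such a p was found for 6 of 10 pluripotency, 2 of 7 feeder fibroblast, 2 of 4 trophoblast and 1 of 4 neuroectoderm markers. Under LIF/PD it was found for 4 of 10 pluripotency markers, of which 0 passed, beside 6.59% of all tested features. Of all tested features 1.17% passed under GCSF, 0.804% higher, and 12.1% had an unadjusted p under 0.05. The median log2 difference under GCSF was -0.011 for the trophoblast list, -0.044 for the neuroectoderm list and -0.013 for the feeder fibroblast list, against 0.0078 over all tested features. The mean log2 value of the trophoblast list was 7.95 and 8.04 under GCSF and 7.94 and 8.01 under LIF/PD, against 7.87 and 7.91 in control. For the neuroectoderm list it was 7.55 and 7.61 under GCSF, which overlapped control, and 7.65 and 7.63 under LIF/PD, which did not, against 7.51 and 7.57 in control. The median and the mean of the trophoblast and neuroectoderm lists thus differ in sign under GCSF. Each median is over the 4 tested genes of a list and each mean over all 5 found. Each mean includes the 1 called gene of its list (Tfap2c, 0.74, or Pax6, 0.54), to which a median gives little weight. The reason for the difference in sign was not tested. The part of these marker genes in the results for the AP-1 genes was not tested.

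**Figure D1:**
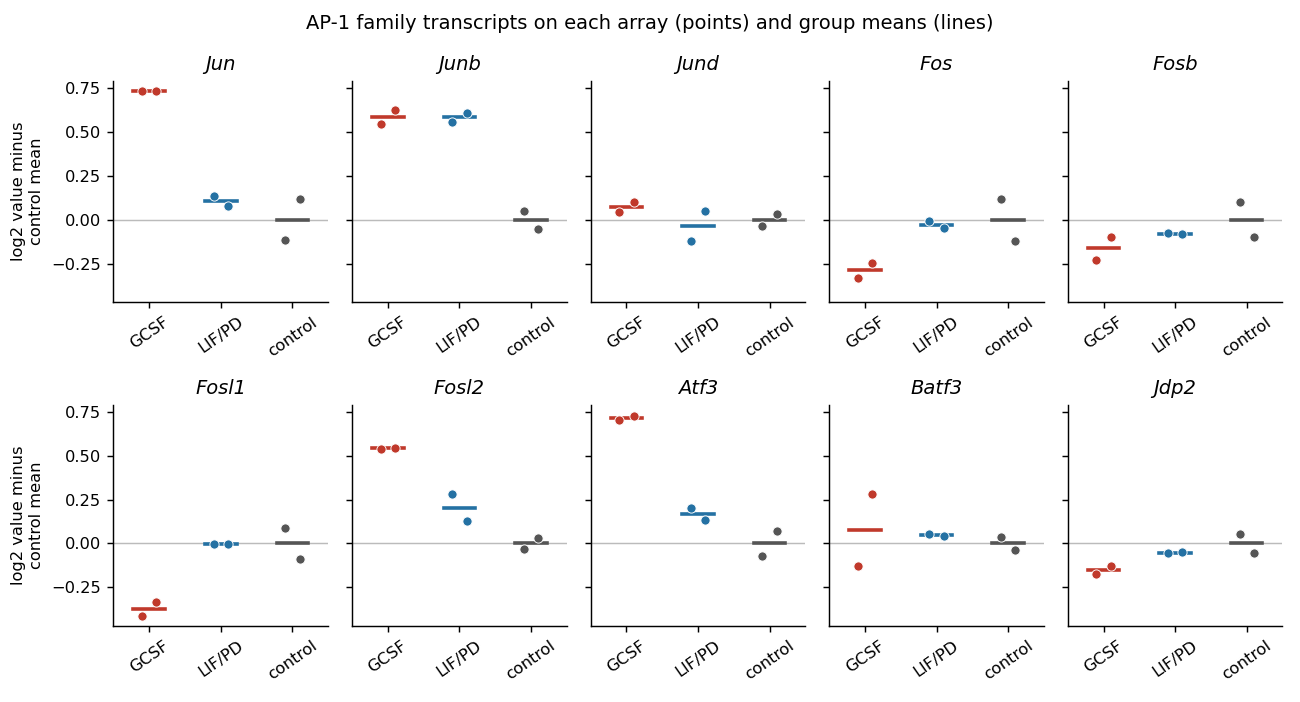
Log2 value of each AP-1 family gene on each array minus its mean in the control arrays (vertical axis), for the arrays labelled GCSF, LIF/PD and control (horizontal axis); points are arrays and lines are means of 2. Jun, Atf3 and Fosl2 stand highest under GCSF, Junb stands equally high under both treatments, and Fosl1 is lowest under GCSF.

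The sequences upstream of Junb, which was higher under both labels, and of Jun and Atf3, which differed between the labels, are shown because these genes carry the contrast described below. They are the 250 bases before the annotated start in RefSeq's GRCm38.p6 (mouse) table, 5′ to 3′ on the strand of the gene, with capitals marking the motifs found. Junb lies at chr8:84978749-84978998, Jun at chr4:95052223-95052472 and Atf3 at chr1:191183334-191183583, all on the minus strand. In Jun the capitals mark an AP-1-like element, TGACATCA, and in Junb and Atf3 the core TGACG of the cAMP response element, which Atf3 carries on the reverse strand.
Junb: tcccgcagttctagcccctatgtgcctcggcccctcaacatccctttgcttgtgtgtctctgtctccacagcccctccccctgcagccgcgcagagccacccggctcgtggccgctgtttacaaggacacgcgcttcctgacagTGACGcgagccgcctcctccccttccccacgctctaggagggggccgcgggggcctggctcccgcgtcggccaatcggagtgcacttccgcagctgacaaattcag
Jun: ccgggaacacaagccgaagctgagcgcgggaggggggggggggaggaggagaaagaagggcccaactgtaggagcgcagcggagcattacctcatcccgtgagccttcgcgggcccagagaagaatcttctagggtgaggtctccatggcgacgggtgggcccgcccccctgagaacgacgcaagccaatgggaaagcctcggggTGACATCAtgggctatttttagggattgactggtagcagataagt
Atf3: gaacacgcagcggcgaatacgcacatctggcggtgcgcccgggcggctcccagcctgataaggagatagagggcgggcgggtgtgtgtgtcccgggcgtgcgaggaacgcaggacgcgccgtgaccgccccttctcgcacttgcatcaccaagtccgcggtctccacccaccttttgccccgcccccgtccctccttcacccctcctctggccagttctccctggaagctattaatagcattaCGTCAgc

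The element in Jun spans bases -45 to -38 from the start, the one in Junb -106 to -102 and the one in Atf3 -7 to -3. Upstream windows were in the table for 9 of the members, Fosl1 being named only, and Jdp2 had 3 windows. Both strands were searched. The core TGACG, which is also contained in the full element TGACGTCA, was present for 5 of these 9 genes (Junb, Fos, Fosb, Atf3 and Jdp2). By window, the core was in 5 of the members' 11, beside 17.8% of all 32841 windows. Fos held it at 2 positions, -129 to -125 and -66 to -62. TGACATCA was found for Jun and in 2.93% of windows, and it and TGACG were added to the search after the members' sequences had been seen. The STAT motif TTCNNNGAA was found upstream of Batf3 at -239 to -231 and in 7.02% of windows. None of the members' windows held TGACGTCA (1.55% of windows), TGANTCA, the AP-1 motif (6.75%), the ETS core CCGGAA (12.0%) or a CArG box, the site of SRF (1.47%). No match says only that these letters are not within 250 bases of the annotated start.

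Among the JUN genes, Jun (feature 10514466) encodes c-JUN, the founding member of the family. Its log2 value was 9.76 and 9.76 under the label GCSF and 9.16 and 9.10 under LIF/PD, against 8.91 and 9.14 in control. The arrays labelled GCSF stood above the other 4, while LIF/PD and control overlapped. Jun rose under GCSF by 0.73 ± 0.07 log2 (SE, n = 2 arrays per group; 1.66-fold; adjusted p = 0.00190). Under LIF/PD the difference from control was 0.11 ± 0.07, with a 95% interval from -0.06 to 0.27 (adjusted p = 0.832). Jun's control arrays lay 0.23 apart, and without control replicate 1 the LIF/PD difference was -0.01.

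Junb (feature 10580282) encodes a JUN protein that is often a weaker activator than c-JUN and can restrain it. Its log2 value was 7.67 and 7.75 under GCSF and 7.68 and 7.73 under LIF/PD, against 7.17 and 7.07 in control. The treated arrays of both labels lay above both controls and among each other. The rise was 0.59 ± 0.07 under GCSF (1.50-fold, adjusted p = 0.00492) and 0.58 ± 0.07 under LIF/PD (adjusted p = 0.0400). The call under LIF/PD stood near the threshold: it held in 4 of 17 alternative settings and in 0 of the 6 fits with 1 array left out, with a difference of 0.53 to 0.63 in each of these 17. The feature was 6th of 16912 when tested features were ordered by rise under LIF/PD, and 46th under GCSF.

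Jund (feature 10572456), the JUN gene that most cells express steadily, had log2 values of 9.16 and 9.21 under GCSF and 8.99 and 9.16 under LIF/PD, against 9.08 and 9.14 in control. The group means spanned 9.08 to 9.18, and no difference passed. The 95% interval ran from -0.07 to 0.22 for GCSF against control and from -0.18 to 0.11 for LIF/PD against control, and changes inside these bounds cannot be told apart from 0 here.

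The 4 FOS genes did not move together. Fosl2 (feature 10520862), which encodes FRA2, had log2 values of 8.66 and 8.67 under GCSF and 8.41 and 8.25 under LIF/PD, against 8.09 and 8.15 in control. The groups were ordered GCSF, LIF/PD, control with no overlap. Fosl2 rose by 0.54 ± 0.07 under GCSF (1.46-fold, adjusted p = 0.00528), and under LIF/PD it differed from control by 0.20 ± 0.07 (adjusted p = 0.693, unadjusted p = 0.0137). Without control replicate 1 the adjusted p for the rise under GCSF was 0.0699.

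Fosl1 (feature 10460585) encodes FRA1, whose gene depends on sustained ERK signalling in many cells. It had log2 values of 8.48 and 8.55 under GCSF and 8.88 and 8.88 under LIF/PD, against 8.98 and 8.80 in control. Both arrays labelled GCSF were below the other 4, and LIF/PD lay within the range of the controls. Fosl1 fell by 0.37 ± 0.07 on the log2 scale under GCSF (adjusted p = 0.0410) and differed from control by -0.01 ± 0.07 under LIF/PD (adjusted p = 0.994). Its fall passed in 6 of 18 alternative settings, keeping its direction in all 18, with an adjusted p of up to 0.255.

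Fos (feature 10397346), the gene of c-FOS, had a low signal near the filter, with a mean log2 value of 6.89. Fosb (feature 10560481), the gene of its close relative FOSB, averaged 7.22, at the 49.3 percentile of mean signal. Fos had log2 values of 6.67 and 6.75 under GCSF and 6.99 and 6.95 under LIF/PD, against 7.12 and 6.88 in control. The arrays labelled GCSF were again the lowest, yet the difference from control of -0.29 ± 0.09 did not pass (adjusted p = 0.260, unadjusted p = 0.0136). Under LIF/PD Fos differed from control by -0.03 ± 0.09 (adjusted p = 0.980). Fosb had log2 values of 7.07 and 7.21 under GCSF and 7.23 and 7.22 under LIF/PD, against 7.40 and 7.20 in control, so both treated groups overlapped control. Its differences were -0.16 ± 0.09 under GCSF (adjusted p = 0.513) and -0.08 ± 0.09 under LIF/PD (adjusted p = 0.916). The control arrays differed by 0.24 for Fos, 0.20 for Fosb and 0.18 for Fosl1, with control replicate 1 the higher in each, and by 0.23 for Jun and 0.15 for Atf3, with control replicate 1 the lower.

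Of the related bZIP partners, Atf3 (feature 10361091) encodes a stress-induced factor that often represses. Its log2 value was 8.45 and 8.48 under GCSF and 7.95 and 7.88 under LIF/PD, against 7.68 and 7.83 in control. The groups did not overlap, and GCSF stood furthest from control. Atf3 rose by 0.71 ± 0.07 under GCSF (1.64-fold, adjusted p = 0.00175), and under LIF/PD it differed from control by 0.17 ± 0.07 (adjusted p = 0.736, unadjusted p = 0.0398). Jun and Atf3 passed under GCSF in all 18 alternative settings and Junb in all 17 in which it was tested, each with every single array left out in turn.

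Batf3 (feature 10352717), known for its part in dendritic cell development, and Jdp2 (feature 10397351), a repressor that binds JUN, did not pass. Batf3 had log2 values of 6.65 and 7.06 under GCSF and 6.83 and 6.82 under LIF/PD, against 6.81 and 6.74 in control. Its mean signal, 6.82, was the lowest of the members and near the filter. The GCSF arrays of Batf3 lay 0.41 apart, the widest pair of any member and group, and enclosed the other 4. Jdp2 had log2 values of 7.53 and 7.58 under GCSF and 7.65 and 7.66 under LIF/PD, against 7.76 and 7.65 in control, a difference of -0.15 ± 0.07 under GCSF (adjusted p = 0.420). Fos and Jdp2 are neighbours on chromosome 12 with 0 protein-coding genes between them in RefSeq's GRCm38.p6 annotation, and both were lowest under GCSF without passing. Batf3 and Atf3 lie on chromosome 1 with 1 protein-coding gene between them, and of these only Atf3 was called.

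**Figure D2:**
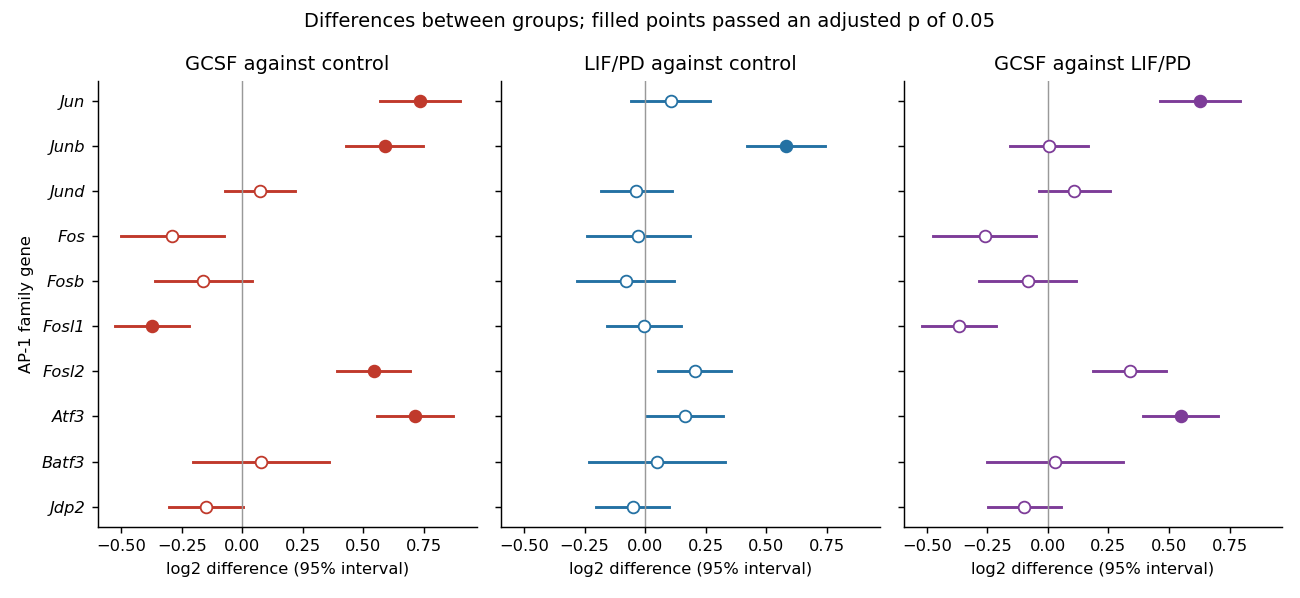
Log2 difference of each AP-1 family gene (horizontal axis; points, with 95% intervals as lines) in 3 comparisons; filled points passed an adjusted p of 0.05. Junb is near 0.6 in both comparisons with control and near 0 between the treatments, while Jun and Atf3 are high in the first and last panels.

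Set directly against each other, the treated groups differed in Jun and Atf3. Jun was higher under GCSF than under LIF/PD by 0.63 ± 0.07 (1.54-fold, adjusted p = 0.00696) and Atf3 by 0.55 ± 0.07 (1.46-fold, adjusted p = 0.0110). These were 2 of 10 members called, both higher, against 0.846% of all tested features, 0.443% higher and 0.402% lower. At an unadjusted p under 0.05 there were 5 members, against 11.8% of all features. Fosl1 was lower under GCSF by 0.37 ± 0.07 and Fosl2 higher by 0.34 ± 0.07, with adjusted p of 0.0516 and 0.0681, so neither passed. For Junb the difference was 0.00 ± 0.07, with a 95% interval from -0.16 to 0.17 (adjusted p = 0.991). For Fos it was -0.26 ± 0.09 (adjusted p = 0.325, unadjusted p = 0.0216), and for Jund, Fosb, Batf3 and Jdp2 it lay between -0.10 and 0.11. The calls of Jun and Atf3 ended without LIF/PD replicate 1 or 2 or without GCSF replicate 1, and that of Atf3 also without GCSF replicate 2, with adjusted p of 0.0566 to 0.116 and differences of 0.51 to 0.66. They also ended with the median of each array's control block as a covariate (adjusted p = 0.216 and 0.220), a median that was 6.84 and 6.71 under GCSF and 6.58 and 6.68 under LIF/PD.

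The arrays of the groups compared did not overlap for 8 of 10 members under GCSF against control, 4 of 10 under LIF/PD against control and 7 of 10 between the treatments. Over all tested features these shares were 41.8%, 38.4% and 41.5%. With 2 arrays a group, separation is common, and the count of members under LIF/PD is near the background.

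**Figure D3:**
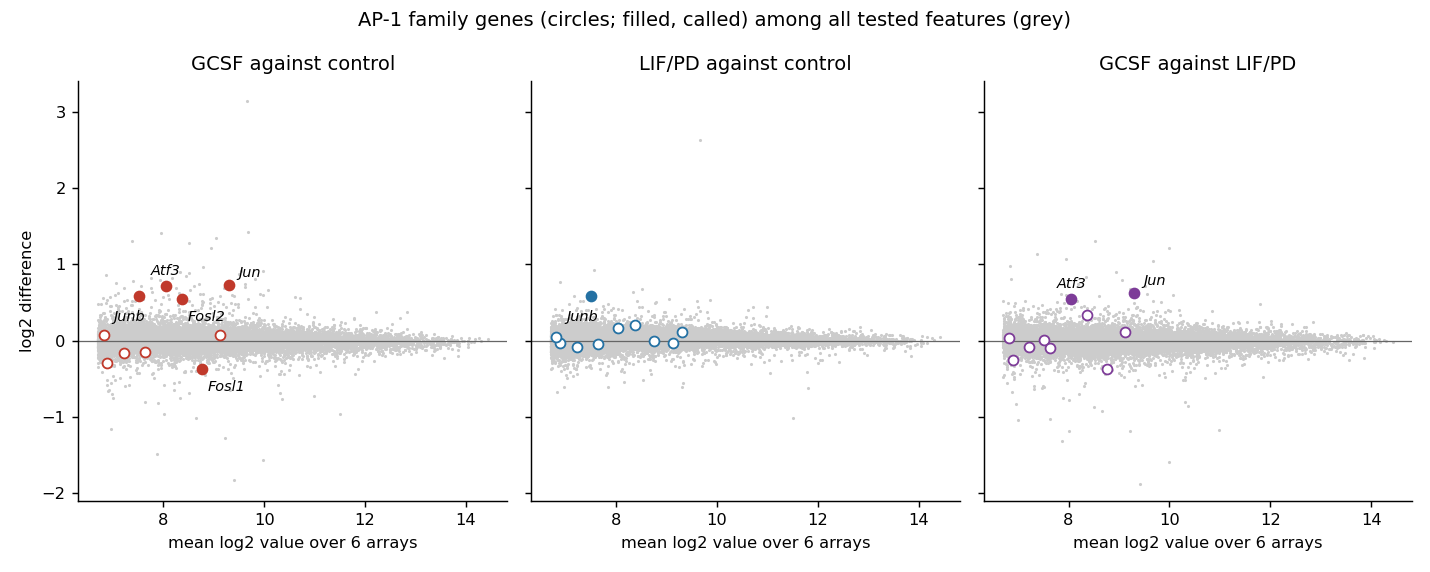
Log2 difference (vertical axis) against mean log2 value over 6 arrays (horizontal axis) for all 16912 tested features (grey) and the 10 AP-1 family genes (circles; filled and named where called), in 3 comparisons. The called members lie outside the bulk of features of like signal, at differences of 0.37 to 0.73 in size.

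Genes around AP-1 were described from lists whose members were named for their roles. Of 36 tested genes for other bZIP factors (of 41 listed), 0 passed in any of the 3 comparisons with limma, and 3, 2 and 4 had an unadjusted p under 0.05 in GCSF against control, LIF/PD against control and GCSF against LIF/PD. Over all tested features 1.17%, 0.065% and 0.846% passed, and 12.1%, 6.59% and 11.8% had an unadjusted p under 0.05. At such shares a list of this size would hold few calls or none. The smallest p under GCSF belonged to Nfil3, a repressor of the bZIP class (0.33 ± 0.07, adjusted p = 0.0834), Creb1 (0.12 ± 0.04, adjusted p = 0.307) and Xbp1 (0.10 ± 0.04, adjusted p = 0.315). Under LIF/PD these genes differed from control by -0.03 ± 0.07, -0.02 ± 0.04 and 0.17 ± 0.04, so Xbp1 was not particular to GCSF. The median log2 difference of this list was 0.04 under GCSF and 0.01 under LIF/PD, with 0.01 over all tested features in both comparisons.

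Of 20 tested kinases upstream of AP-1 (of 26 listed), 0 passed with limma in the 3 comparisons, with 2, 1 and 2 at an unadjusted p under 0.05. Map3k1, a kinase upstream of JNK, had the smallest p under GCSF, at 0.27 ± 0.06 (adjusted p = 0.0989). All 6 genes of SRF and its cofactors were tested and 0 passed, with 0, 1 and 0 at an unadjusted p under 0.05, and Srf itself did not pass. Of 13 tested genes for turnover and cofactors of JUN and FOS (of 14 listed), 0 passed, with 0, 1 and 0 at an unadjusted p under 0.05. The medians of these 3 lists lay between -0.01 and 0.03 in all 3 comparisons. Over all tested features 1.17%, 0.065% and 0.846% passed in the 3 comparisons, and 12.1%, 6.59% and 11.8% had an unadjusted p under 0.05. Counts of 0 in such short lists are therefore near the background.

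Of 19 tested AP-1 target genes (of 25 listed), 2 were lower and 0 higher under GCSF with limma, where 0.367% of all tested features were lower and 0.804% higher. Under LIF/PD 0 passed. At an unadjusted p under 0.05 there were 7 of 19 in GCSF against control, 2 in LIF/PD against control and 9 in GCSF against LIF/PD, beside 12.1%, 6.59% and 11.8% of all tested features. Ccl2, which encodes a monocyte chemokine, averaged 10.39 under GCSF, against 10.84 in control (-0.45 ± 0.05, adjusted p = 0.00220). Plau, which encodes urokinase, averaged 7.67 under GCSF, against 8.03 in control (-0.36 ± 0.06, adjusted p = 0.0299). The same 2 genes were lower under GCSF than under LIF/PD, Ccl2 by 0.49 ± 0.05 (adjusted p = 0.00287) and Plau by 0.52 ± 0.06 (adjusted p = 0.00710). The list's median log2 difference was -0.03 under GCSF and 0.03 under LIF/PD, and -0.09 between the treatments, against 0.01, 0.01 and -0.00 over all tested features.

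**Figure D4:**
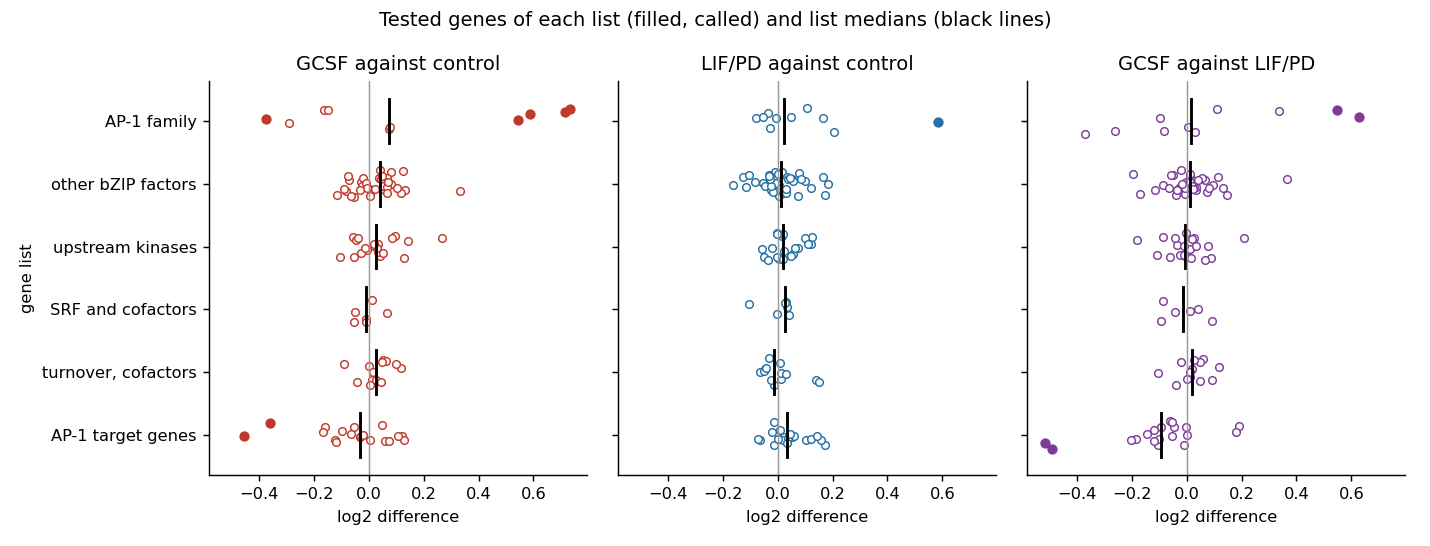
Log2 difference (horizontal axis) of the tested genes in the AP-1 family and 5 related lists (rows), in 3 comparisons; filled points were called and black lines are list medians. Called genes appear in the AP-1 family and, as falls of Ccl2 and Plau, among AP-1 target genes.

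Profiles like those of the called members were sought among 14020 other tested features with 1 symbol, by the root mean square distance over the 6 arrays after centring each feature on its mean. Nearest to Jun was Dusp10, a phosphatase gene for JNK and p38 (distance 0.07 log2), followed by Btg2 and Dnajb4 at 0.08 and 0.09. Dusp10 was also nearest to Atf3 (0.05), with Sbno2 and Dnajb4 next, both at 0.07 to 0.08. Junb stood nearest to Dact1 (0.05), Gbx2 and Klf5 (both 0.08), which differed from control by 0.54, 0.66 and 0.56 under GCSF and by 0.52, 0.68 and 0.43 under LIF/PD. Fosl2 stood nearest to Irak3 (0.03), Slc1a4 (0.04) and Osmr, the oncostatin M receptor gene (0.05). Fosl1 stood nearest to Zfp36l2 (0.04), Hax1 (0.04) and Tor3a (0.05). These distances describe 6 arrays in 3 groups.

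**Figure D5:**
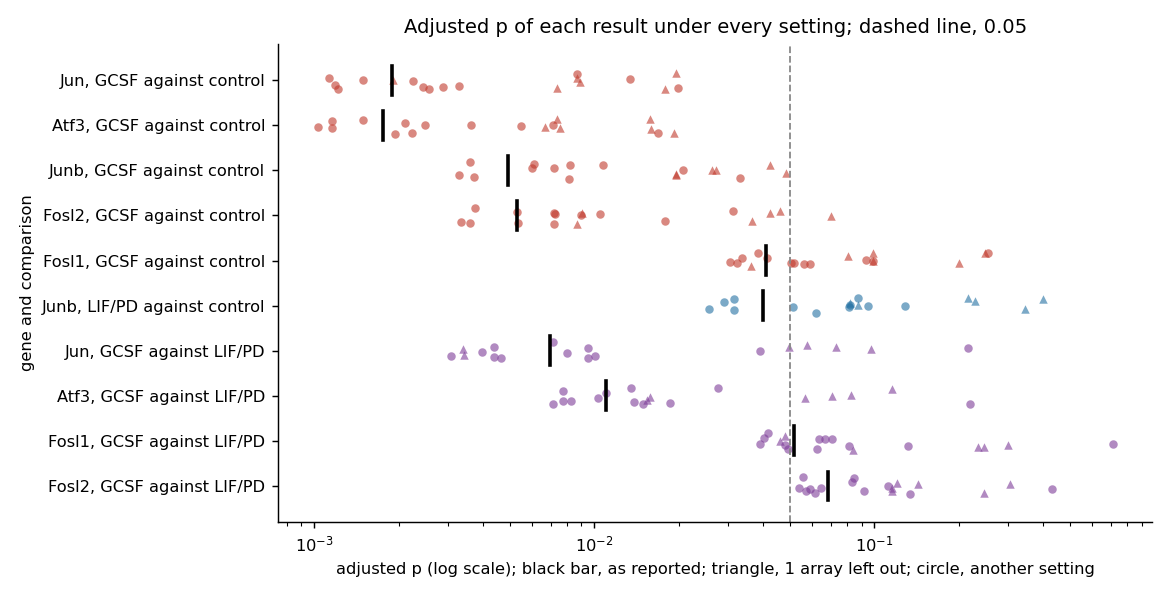
Adjusted p (horizontal axis, log scale) of the 10 results named on the vertical axis, as reported (black bars), with 1 array left out (triangles) and under the other settings (circles); the dashed line is 0.05. Jun, Atf3 and Junb under GCSF lie left of the line in every setting shown, while Junb under LIF/PD and Fosl1 lie on both sides of it.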

How the data were processed

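Per the labels, a core facility labelled TRIzol-extracted total RNA with biotin for single-colour arrays. The deposited values, 34760 features on 6 arrays, were read as log2 intensity because none is negative and they run from 2.29 to 14.50. The log base, background correction and normalization are not given in the sources used here. Genes were named from the platform annotation. Features of the control block (6573, with identifiers below the first annotated one) were left out, and the 16912 features at or above the 40th percentile of the mean of the rest were tested.

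Group means were fitted over all 6 arrays with limma 3.58.1 in R 4.3.3, with an intensity trend in the variances and 8.4 total degrees of freedom, of which 3 were residual. P-values are two-sided and Benjamini-Hochberg adjusted over all tested features, and a feature was called under 0.05. They measure the spread between arrays, which may be technical. Arrays have no read depth, and 2 per group limit the precision. Lists used each gene's feature with the highest mean. Genes named were all members, label checks, called list genes with those of smallest p, and the 3 nearest profiles of each called member. Members and lists were chosen with earlier results of these data known. Upstream sequences came from RefSeq's GRCm38.p6 table.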

Additional observations from a re-analysis of the deposited data

How the results depend on the processing

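Alternatives covered the replicate block, the arrays fitted, the filter, normalization, the variance model, array weights, several features per gene, a control block covariate and each array left out. The number of members called under GCSF against control was 5 and stayed at 4 or 5, except with 1 array left out, where it ranged from 3 to 5. The 3, without control replicate 1, were Jun, Junb and Atf3. Under LIF/PD against control the count of 1 became 0 with the replicate block, with only the 4 arrays compared, without a filter, with the 60th percentile filter (which removed Junb from the test), with quantile normalization, median centring, no intensity trend or the covariate, and was 0 to 0 with 1 array left out. The cause was not tested. Between the treatments the count of 2 became 0 with the covariate and ranged from 0 to 3 with 1 array left out.

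With the replicate block, Fosl1 under GCSF (adjusted p = 0.0560) and Junb under LIF/PD (0.0818) lost their calls, and no other call changed. Deviations of same-numbered arrays correlated at 0.10, 0.01 and 0.08 across the group pairs. With 2 numbers, these values cannot tell whether same-numbered arrays were handled together, and the labels do not say. No called value changed sign. Uncalled differences that did were those of Batf3 (-0.057 under LIF/PD) and Fosb (0.053 between treatments) with the covariate, and with 1 array left out Batf3 under GCSF (-0.13 to 0.28) and between treatments (-0.18 to 0.23), Junb between treatments (-0.035 to 0.044), and, under LIF/PD, Jun (-0.012 to 0.22), Jund (-0.12 to 0.049), Fos (-0.15 to 0.092), Fosb (-0.18 to 0.022), Fosl1 (-0.094 to 0.083) and Jdp2 (-0.11 to 0.0014). Fosl1 between treatments passed in 7 of 18 settings.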
